A study of Homo sapiens with 26 samples.

Results

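The genes described here are the cadherins, claudins, keratins and integrin subunits measured in 786-O cells, a human clear cell renal carcinoma line. They were found by symbol (CDH, CLDN or KRT followed by digits, or ITGA or ITGB followed by a digit or a letter) among probe sets that carry 1 gene, and a gene with several such probe sets was represented by the one with the highest mean signal in the deposited table. This gave 113 genes of 19775 with a single-gene probe set: 21 cadherins, 20 claudins, 42 keratins, 25 integrin subunits, the integrin-like gene ITGBL1 and 4 noncoding genes named after integrins (ITGA9-AS1, ITGB1-DT, ITGB2-AS1 and ITGB8-AS1). Total RNA was measured on 26 Affymetrix U133 Plus 2.0 arrays. The groups, of 3 arrays each, were WT8, PRC3, 4 treatments with inhibitors of HIF-2a translation known by the code numbers 40, 41, 76 and 77, the vehicle DMSO, and Blk, taken as untreated cells by elimination. pTR and pTV had 1 array each. PRC3 and WT8 are, as background, common names of 786-O sublines with an empty vector and with wild-type VHL. All groups share the 786-O background, a line without functional VHL in which HIF-2a accumulates. That state need not hold in WT8 if it carries wild-type VHL. The labels do not state what PRC3, WT8, pTR and pTV are, whether a subline is 1 clone, or any dose or treatment time.

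Cadherins are calcium-dependent receptors that join neighbouring cells at adherens junctions, with catenins linking them to actin. Claudins are the membrane proteins that form the strands of tight junctions and set which ions pass between epithelial cells. Keratins are intermediate filament proteins that assemble as pairs of 1 type I and 1 type II chain, and KRT8 with KRT18 is the pair of simple epithelia such as the kidney tubule. Integrins are heterodimers of an alpha and a beta subunit that bind the extracellular matrix, and the pairs of ITGAV with ITGB3, ITGB5, ITGB6 or ITGB8 recognise the RGD motif of ligands such as vitronectin, fibronectin or the latent form of TGF-beta. In the kidney the tubule expresses CDH1, CDH6 and CDH16, and CDH2 is a cadherin of mesenchymal and neural cells that is also made in the proximal tubule.

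Signals were quantile normalised, set to at least 20 and log2 transformed, and a probe set was kept when its signal was no lower than the array median on 3 or more of the 24 replicated arrays. Of the 113 members 78 were kept (69.0%, against 68.9% of all single-gene probe sets), namely 10 cadherins, 17 claudins, 23 keratins, 23 integrin subunits, ITGBL1 and the 4 noncoding genes. The other 35 did not exceed a signal of 42.3 on any array and entered no test. Of 5 markers of the line PAX8 ran from 761 to 1329 and VIM from 7208 to 8708 on the 26 arrays, and CA9 had no single-gene probe set. PAX2 ran from 22.1, in pTR, to 177. CA12 varied most, with means of 670 in WT8 and 1409 in PRC3, and signals of 167 in pTR and 1925 in pTV. The summed signal of 5 proximal tubule markers was 101 to 159, against 100 with all at the floor. Of 5 leukocyte markers PTPRC and CD14 were at the floor of 20 on all 26, CD3E and LYZ reached 31.1 and 24.5, and CD79A ran from 43.7 to 85.8. Of 5 endothelial markers VWF and ESAM were at the floor on all 26, KDR and TEK reached 35.1 and 75.0, and PECAM1 ran from 45.5 to 117. The summed signals of 3 marker lists were higher on all WT8 arrays than on all PRC3 arrays. They were 270.1 to 303 in WT8, against 190.0 to 222 in PRC3, for 5 fibroblast markers, 159.9 to 166 in WT8, against 145 to 155 in PRC3, for the leukocyte markers and 181 to 202 in WT8, against 161 to 177 in PRC3, for the endothelial markers. LUM made up most of the fibroblast difference, with a mean of 95.4 in WT8 and 33.4 in PRC3. CD79A made up most of the leukocyte one (79.2 in WT8, 65.4 in PRC3), while LYZ was no higher (21.1 in WT8, 21.2 in PRC3). TEK (49.8 in WT8, 37.4 in PRC3) and KDR (27.9 in WT8, 21.3 in PRC3) made up most of the endothelial one. The part of these markers in the results on WT8 was not tested. WT8 replicate 3 stood apart in RNA quality, with the signal at the 3 prime end of ACTB 2.37 times that at the 5 prime end, against at most 1.39 times on every other array. Whether the 3 arrays of a group come from separate cultures is not stated, so the p-values reflect only the variation among these arrays, and that variation may be technical.

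A probe set's signal depends on its probes, so the levels that follow describe each gene across arrays and are no order of abundance between genes. Of the 78 kept members 18 had a mean signal of at least 100. Among the cadherins these were CDH2 (864, from 524 to 1033 over the 24 arrays) and CDH6 (238, from 47.6 to 967). CDH1, the epithelial cadherin, was at the floor on 23 of 24 arrays and reached 28.0 on the other, and the kidney-specific CDH16 reached 28.5. CDH3 was at the floor on all 24. The bright claudins were CLDN1, CLDN12 and CLDN4, while CLDN3 and CLDN8 were at the floor on every array and CLDN7 did not exceed 41.1.

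The bright keratins were the simple-epithelial pair KRT8 (986, from 570 to 1420) and KRT18 (1519, from 821 to 2098), with KRT19, KRT10 and KRT80. KRT7, a type II keratin of ductal epithelia, ran from 61.5 to 173. KRT5 and KRT14, the pair of the basal layer of stratified epithelia, did not exceed 27.3 and 20.0. Among the integrins ITGB1, the beta subunit shared by most matrix receptors, had the highest mean signal (4486) and ITGAV, ITGB5, ITGAE, ITGB8, ITGA3, ITGA5 and ITGB3 also passed 100. ITGA6 had a mean of 68.5, and ITGB4, its partner in hemidesmosomes, 23.9. ITGB6 had only probe sets that carry several genes and was not a member.

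**Figure D1:**
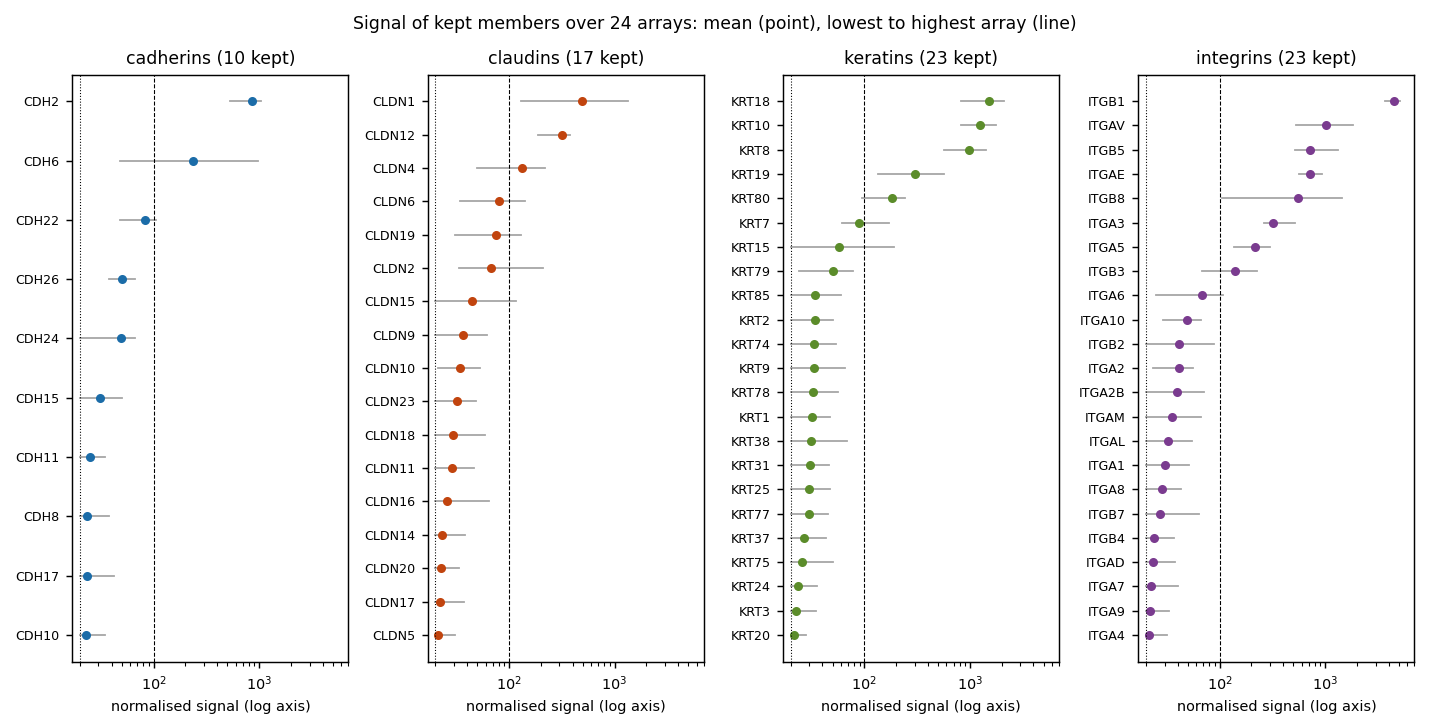
Normalised signal (horizontal log axis) of the kept cadherins, claudins, keratins and integrin subunits, 1 row per gene; the point is the mean of 24 arrays, the line runs from the lowest to the highest array, the dotted line marks the floor of 20 and the dashed line a signal of 100. Most members lie below 100, and CDH6 and ITGB8 have some of the widest ranges among the brighter ones.

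How far a member varied between groups differed widely. ITGB1 was the steadiest, with group means 1.14-fold apart at most. CDH6 varied most, 8.55-fold between its highest group, WT8, and its lowest, compound 41, followed by KRT15 (5.58-fold), CLDN1 (4.25-fold) and ITGB8 (4.00-fold). Of the 18 members with a mean of at least 100, 7 had group means more than 2-fold apart (38.9%), against 15.01% of the 12065 kept probe sets as bright. In CDH6 and CLDN1 much of the variation followed the replicate number. CLDN1 was highest on replicate 3 in WT8 (1338) and PRC3 (1258), and lowest on replicate 3 in the compounds 40, 41 and 76, DMSO and Blk. CDH6 did the reverse, being lowest on replicate 3 in WT8 (240) and PRC3 (97.6) and highest on it in all 4 compounds, DMSO and Blk. Replicate numbers are therefore given as a block in the model beside the comparisons in which same-numbered arrays deviated together. These were WT8 against PRC3, compounds 41 and 76 against DMSO, DMSO against Blk, and compound 41 against 76. For 41 against 76 the block lowered the SE from 0.38 to 0.16 for CLDN1 and from 0.56 to 0.22 for CDH6. As the direction differed between groups, calls with the block depend on which groups are taken to share a replicate effect.

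WT8 was set against PRC3 to see which of these genes differ between the 786-O sublines. Of the 4 members called, 3 were integrin subunits, of 23 tested (13%, against 4.56% of all probe sets). The arrays of the groups did not overlap for 17.4% of the integrin subunits, against 15.8% of all probe sets. These differences were not tested. ITGB8, the beta subunit that pairs with ITGAV and activates latent TGF-beta, was 4.00-fold lower in WT8 than in PRC3, and ITGB5, another partner of ITGAV, was 1.71-fold lower. ITGA5, the alpha subunit of the fibronectin receptor, was 1.58-fold lower, and CLDN4, a claudin of the distal nephron and collecting duct, 1.73-fold lower. No member was called higher. Of the 78 members tested 4 were called at an adjusted p below 0.05 (5.13%), against 4.56% of all 35013 probe sets, so the share of members called was close to the background. All 4 were lower, as were 2.21% of all probe sets.

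ITGB8 had signals of 305, 228 and 293 in WT8, against 898, 1009 and 1445 in PRC3. All WT8 arrays lay below all PRC3 arrays, with means of 276 ± 41.3 in WT8 and 1118 ± 289 in PRC3 (SD, n = 3 each). The log2 change was -2.0 (SE 0.44, limma adjusted p = 0.00743). It stayed called when any 1 of the 6 arrays was left out, with adjusted p from 0.0147 to 0.0444. With only WT8 and PRC3 in the fit no member was called, and ITGB8 had an adjusted p of 0.0566. The gene's other 3 kept probe sets were lower in WT8 too, each called, with log2 changes of -1.37, -1.99 and -1.73. Array signals average all cells of a culture, so fewer cells with the transcript and less transcript per cell cannot be told apart here or in the results below.

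ITGB5 had signals of 514, 641 and 690 in WT8, against 889, 1335 and 951 in PRC3. The arrays of the groups did not overlap, and the log2 change was -0.77 (SE 0.16, adjusted p = 0.00415), called in all 6 fits with 1 array left out and not with only the 2 groups in the fit (adjusted p = 0.216). Its other 3 kept probe sets had log2 changes of -0.06, -0.39 and -0.05, of which none was called, and the mean over the gene's probe sets changed by -0.32 and was not called. ITGA5 had signals of 171, 137 and 169 in WT8, against 297, 228 and 232 in PRC3. Its log2 change was -0.66 (SE 0.17, adjusted p = 0.0232), and the call was lost without PRC3 replicate 1 (adjusted p = 0.122) or WT8 replicate 2 (adjusted p = 0.136), and with only the 2 groups in the fit (adjusted p = 0.193).

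ITGAV, the alpha subunit common to ITGB8 and ITGB5, did not follow them. Its signals were 1412, 1748 and 1830 in WT8, against 1300, 1056 and 961 in PRC3. Every WT8 array was above every PRC3 array, but the 1.51-fold difference was not called without the block (log2 0.59, adjusted p = 0.0692), and it was called with replicate number as a block (adjusted p = 0.0118). It was also called without PRC3 replicate 1 (adjusted p = 0.0475) or without WT8 replicate 1 (adjusted p = 0.0424). ITGB3, the remaining bright partner of ITGAV, averaged 184 ± 48.8 in WT8 and 161 ± 46.5 in PRC3, with overlapping arrays and a log2 change of 0.19 (95% interval -0.38 to 0.76). ITGB1 averaged 4830 in WT8 and 4540 in PRC3, a log2 change of 0.09 whose 95% interval ran from -0.12 to 0.31.

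**Figure D2:**
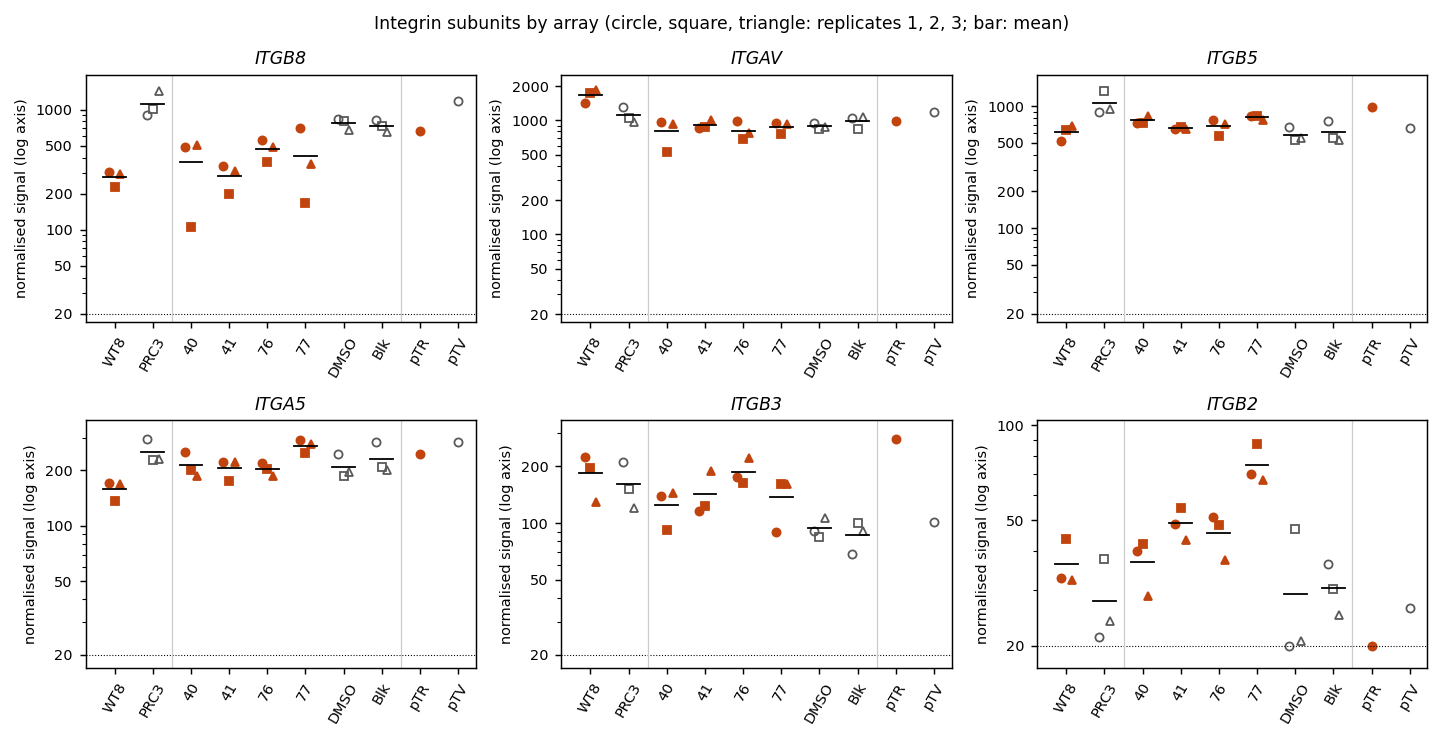
Normalised signal (log axis) of 6 integrin subunits on each of the 26 arrays by group; circles, squares and triangles are replicates 1, 2 and 3, the bar is the group mean, filled symbols are WT8, the compounds and pTR, and the dotted line is the floor of 20. ITGB8 is lower on all WT8 arrays (228 to 305) than on all PRC3 arrays (898 to 1445), and ITGAV is higher on all WT8 arrays than on all PRC3 arrays.

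The promoters of the 4 called genes were searched for the letters ACGTG and GCGTG on both strands, the core of the site that HIF binds. ACGTG is also part of the E-box CACGTG, so a match to ACGTG would not tell these sites apart, but none of the 4 promoters held it. The window was 300 bases, from 250 before to 50 after the RefSeq start site in GRCh38.p14. ITGA5 and ITGB8 held GCGTG, and CLDN4 and ITGB5 held neither core. The matches are shown because they belong to members that were lower in WT8, with 8 bases on each side of the core in lower case and the core in capitals, each written 5′ to 3′ on the strand that carries it.
ITGB8, same strand as the gene, chr7:20330746-20330766, core starting 146 bases before the start site: ctccggtaGCGTGgggaggtt
ITGB8, opposite strand, chr7:20330665-20330685, 227 bases before: tcggagcaGCGTGggcgggac
ITGA5, opposite strand, chr12:54419384-54419404, 130 bases before: cctaagggGCGTGgggggggg
Either core was present in 48.4% of 35116 promoters of the same length and in 27 of the 70 members that the table holds (38.6%), so the letters are common, and a match is a description only.

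Among the claudins, CLDN4 had signals of 80.9, 55.7 and 49.7 in WT8, against 107, 104 and 104 in PRC3. The groups did not overlap, and the log2 change was -0.79 (SE 0.22, adjusted p = 0.0338). The call was lost without any PRC3 array, without WT8 replicate 2 and without WT8 replicate 3, with adjusted p from 0.0739 to 0.148. The call was also lost with signals as deposited (adjusted p = 0.0834), with median scaling (0.0608), with log2(signal + 20) in place of the floor (0.0519) and with only the 2 groups in the fit (0.265). CLDN2, which forms the cation channel of proximal tubule junctions, ran the other way, with signals of 153, 211 and 97.7 in WT8, against 90.9, 94.3 and 42.8 in PRC3. It was 2.05-fold higher in WT8, not called without the block (adjusted p = 0.0623) and called with it (adjusted p = 0.00425). Without WT8 replicate 3, the array with the ACTB ratio of 2.37, CLDN2 was called without the block too (log2 1.33, adjusted p = 0.0218). CLDN1, the claudin that seals the tight junctions of the epidermis and other epithelia, averaged 847 ± 429 in WT8 and 757 ± 434 in PRC3, a difference well within the spread of the arrays.

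CDH6, the kidney cadherin of the proximal tubule, had signals of 967, 787 and 240 in WT8, against 504, 341 and 97.6 in PRC3. On each replicate number the WT8 array was the higher, while the groups as a whole overlapped. The 2.22-fold difference (log2 1.15, SE 0.56) was not called without the block (adjusted p = 0.332) and was called with it (adjusted p = 0.0014). All 5 other kept probe sets of CDH6 were higher in WT8, and the mean over the gene's probe sets, 1.42 on the log2 scale, was called without the block. CDH2 averaged 734 ± 230 in WT8 and 844 ± 176 in PRC3, with a log2 change of -0.23 (95% interval -0.56 to 0.10).

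No keratin was called without the block on all arrays. KRT19, a type I keratin of simple epithelia that lacks the tail domain of other keratins, had signals of 372, 389 and 167 in WT8, against 135, 236 and 146 in PRC3, a 1.73-fold difference (adjusted p = 0.0866). It was called without WT8 replicate 3 (log2 1.19, adjusted p = 0.00249) or without PRC3 replicate 2 (log2 1.04, adjusted p = 0.0327). With replicate number as a block KRT19 was called (adjusted p = 0.00724), as were KRT10 (1.42-fold higher in WT8, adjusted p = 0.0224) and KRT15 (1.85-fold higher, adjusted p = 0.0287). The log2 changes of KRT8 and KRT18 were 0.13 and -0.02, with 95% intervals from -0.27 to 0.53 and from -0.56 to 0.52. With the block 10 of 78 members were called, 6 higher and 4 lower, against 9% of all probe sets.

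Of 50 kept genes from 5 lists of junction, desmosome, focal adhesion and epithelial to mesenchymal partners, 2 were called (4%), close to the 4.56% of all probe sets. FERMT2, a kindlin that activates integrins from inside the cell, averaged 347 ± 69.8 in WT8 and 595 ± 116 in PRC3 (1.71-fold lower, adjusted p = 0.00279). FN1, which encodes fibronectin, the ligand of the ITGA5 and ITGB1 pair, averaged 6954 in WT8 and 4124 in PRC3 (1.69-fold higher, adjusted p = 0.0177). With replicate number as a block 4 were called (8%, against 9% of all probe sets), the other two being the integrin adaptors PXN (1.61-fold lower, adjusted p = 0.0246) and PARVA (1.40-fold lower, adjusted p = 0.0148). No catenin, nectin, tight junction scaffold or desmosomal gene of the lists was called in either fit.

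Each compound was compared with the vehicle DMSO, and the 4 comparisons share the same 3 DMSO arrays. Across the compounds, KRT15 was called higher with 76 and 77, ITGB2 higher with 77, and no other member passed the test without the block. The counts of members called were 0 of 78 with compound 40 and 0 with 41, 1 with 76 and 2 with 77. The background was 0.685%, 2.54%, 1.35% and 0.171% of all probe sets for 40, 41, 76 and 77. At an unadjusted p below 0.05 there were 10, 17, 10 and 10 members (12.8%, 21.8%, 12.8% and 12.8%), against 11.7%, 13.2%, 10.4% and 7.63% of all probe sets. With replicate number as a block 9 members were called with 41 (against 6.67% of all probe sets) and 5 with 76 (against 3.99%).

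KRT15, a type I keratin of basal cells in stratified epithelia, had signals of 65.7, 191 and 136 with compound 77 and 67.1, 114 and 76.2 with compound 76, against 20.0, 41.1 and 21.1 in DMSO. All arrays of both compounds were above all DMSO arrays, of which 1 was at the floor. It was 4.62-fold higher with 77 (log2 2.21, SE 0.40, limma adjusted p = 0.0165) and 3.23-fold higher with 76 (log2 1.69, adjusted p = 0.0332). The 77 call was lost without DMSO replicate 1 or 3 or compound 77 replicate 2 or 3, and the 76 call without DMSO replicate 1 or 3 or compound 76 replicate 2 or 3, with log2 changes of at least 1.87 and 1.47 in those fits. Both calls were lost with no filter (adjusted p = 0.0850 with 77 and 0.0910 with 76) and with only the compared groups in the fit (0.370 and 0.149), and that with 76 also with log2(signal + 20) in place of the floor (0.0516). With 40 and 41 KRT15 averaged 71.3 ± 37.2 and 52.9 ± 10.3, against 27.4 ± 11.9 in DMSO, again with no overlap. The log2 changes were 1.35 with 40 (adjusted p = 0.135) and 1.01 with 41 (adjusted p = 0.233), and that with 41 was called with the block (adjusted p = 0.0159). That with 40 was called in the block fit too, but the same-numbered arrays of 40 and DMSO did not meet the criterion for pairing. KRT5, the usual type II partner of KRT15, stayed at or near the floor throughout.

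No simple-epithelial keratin was called with any compound without the block in the fit of all groups. KRT19 had signals of 181, 186 and 218 with compound 76, against 406, 353 and 394 in DMSO, with no overlap. The 1.98-fold difference was not called without the block (log2 -0.98, SE 0.26, adjusted p = 0.0587) and was called with it (adjusted p = 0.00245). With 41 it averaged 252 ± 38.3, against 384 ± 27.7 in DMSO, and was called lower with the block (adjusted p = 0.0479). KRT8 had signals of 689, 742 and 734 with compound 76, against 1173, 1035 and 1078 in DMSO, 1.52-fold lower, and was called with the block (adjusted p = 0.0384). With only 76 and DMSO in the fit KRT19 and KRT8 were called without the block too (adjusted p = 0.0442 and 0.0478). With compound 40 KRT8 averaged 735 ± 76.0, against 1096 ± 70.7 in DMSO, also with no overlap, and was not called (log2 -0.58, adjusted p = 0.198). KRT18, the partner of KRT8, averaged 1914 ± 222 with 41, against 1322 ± 273 in DMSO, and was called higher with the block (1.46-fold, adjusted p = 0.0159). KRT10 was 1.43-fold higher with 41 and 1.49-fold higher with 76, each called only with the block.

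**Figure D3:**
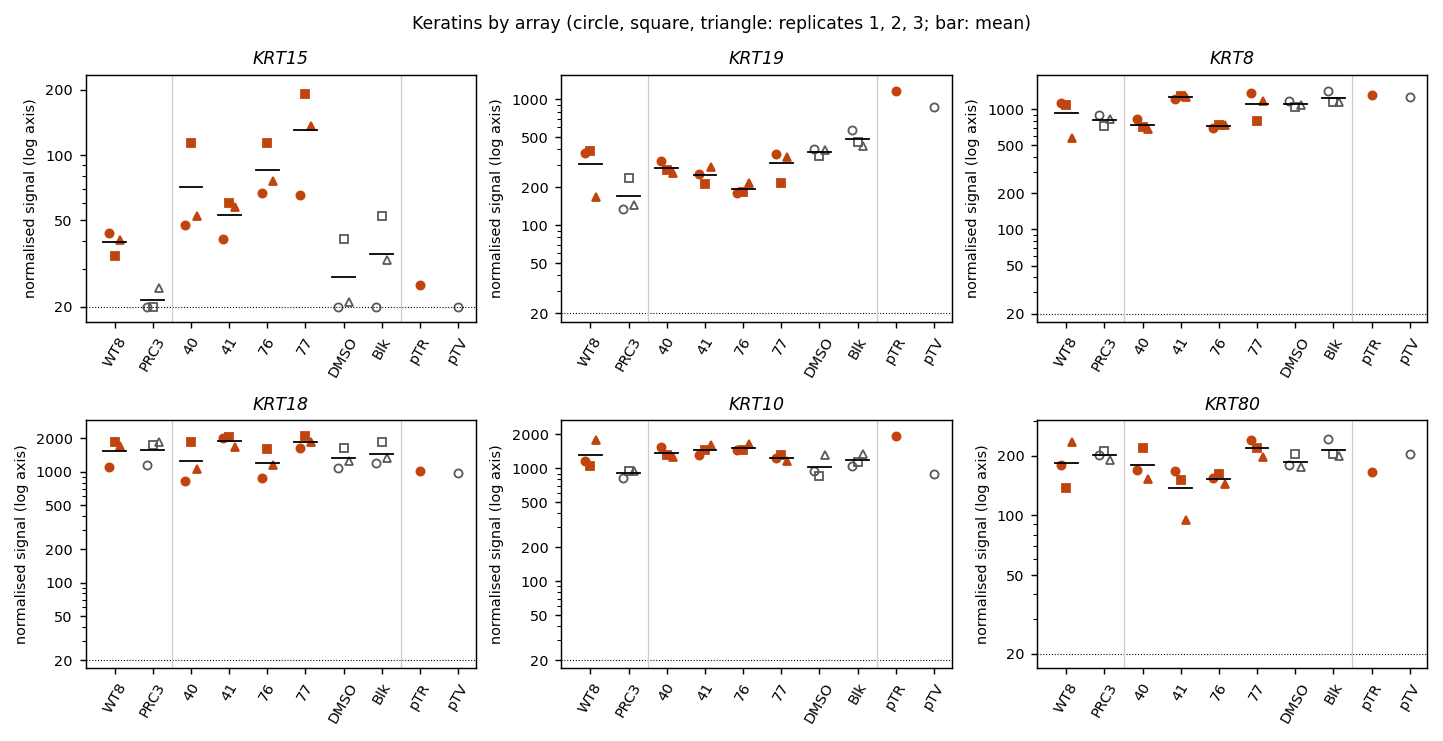
Normalised signal (log axis) of 6 keratins on each of the 26 arrays by group, with symbols for replicates 1, 2 and 3, bars at group means and the floor of 20 as a dotted line. KRT15 lies above all DMSO arrays on every compound array, and KRT19 is lower on all PRC3 arrays (135 to 236) than on all Blk arrays (428 to 571).

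ITGB8 was lower than in DMSO on average with every compound, and was called with none of them without the block. Its signals were 489, 105 and 513 with compound 40, 341, 198 and 311 with 41, 558, 369 and 491 with 76 and 709, 166 and 350.9 with 77, against 836, 808 and 678 in DMSO. Arrays of 40, 41 and 76 all lay below the DMSO arrays, while those of 77 overlapped them. Replicate 2 was the lowest array of each compound. The log2 changes were -1.37 with 40 (adjusted p = 0.174), -1.48 with 41 (adjusted p = 0.0798), -0.73 with 76 (adjusted p = 0.645) and -1.16 with 77 (adjusted p = 0.489). With the block the change with 41 was called (2.80-fold lower, adjusted p = 0.00906), as was 1 other ITGB8 probe set with 41 without the block (log2 -1.26, adjusted p = 0.0223). The change with 40 was also called in the block fit, but the same-numbered arrays of 40 and DMSO did not meet the criterion for pairing. Without compound 40 replicate 2 the change with 40 was -0.62, and without compound 77 replicate 2 that with 77 was -0.63.

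ITGB2, the beta subunit of leukocyte integrins, was dim in all groups. It had signals of 70.3, 87.5 and 67.1 with compound 77, against 20.0, 46.9 and 20.7 in DMSO. The groups did not overlap, and ITGB2 was 2.77-fold higher with 77 (log2 1.47, SE 0.30, adjusted p = 0.0427). The call was lost in 5 of 6 fits with 1 array left out, all but that without DMSO replicate 2, and the mean over its probe sets, 0.99 on the log2 scale, was not called. The call was also lost with median scaling (adjusted p = 0.0837), with no filter (0.107) and with only 77 and DMSO in the fit (0.406). With compound 41 ITGB2 averaged 48.8 ± 5.8, against 29.2 ± 15.3 in DMSO (SD, n = 3 each). It was not called on all arrays (limma, adjusted p = 0.157), and was called with the block (adjusted p = 0.0439) or without DMSO replicate 2 (log2 1.26, adjusted p = 0.0266). The summed signal of the 5 leukocyte markers was 135 to 155 with 77 and 130.3 to 146 with 41, against 135 to 145 in DMSO. PTPRC and CD14 were at the floor on these arrays, and CD79A averaged 62.2 with 77 and 57.7 with 41, against 58.7 in DMSO. ITGB3 had signals of 175, 164 and 223 with compound 76, against 91.3, 84.0 and 106 in DMSO, 1.99-fold higher and called only with the block (adjusted p = 0.00491). ITGB5, lower in WT8, was higher on all arrays of 40 and 77 than in DMSO and was called with neither (log2 0.39 and 0.48). ITGA5 had log2 changes between -0.04 and 0.38 with the 4 compounds.

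CDH6 had signals of 59.9, 47.6 and 103 with compound 41, against 186, 106 and 315 in DMSO. All arrays of 41 were lower, and the 2.77-fold difference was called only with the block (log2 -1.47, SE 0.56, adjusted p = 0.000175, against 0.211 without). CLDN1 had signals of 177, 273 and 130 with 41, against 408, 505 and 244 in DMSO, so that the groups overlapped while each array of 41 was the lower of its replicate number. It was 2.00-fold lower and called only with the block (adjusted p = 0.000353). The claudin CLDN12 averaged 247 ± 53.4 with compound 40, against 345 ± 4.48 in DMSO, and was not called (log2 -0.51, adjusted p = 0.154). CDH2 stayed close to DMSO with all compounds, with log2 changes from -0.14 with 40 to 0.25 with 41. CLDN4 averaged 103 ± 19.9 with 77, against 152 ± 13.5 in DMSO, with no overlap and no call (adjusted p = 0.464).

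**Figure D4:**
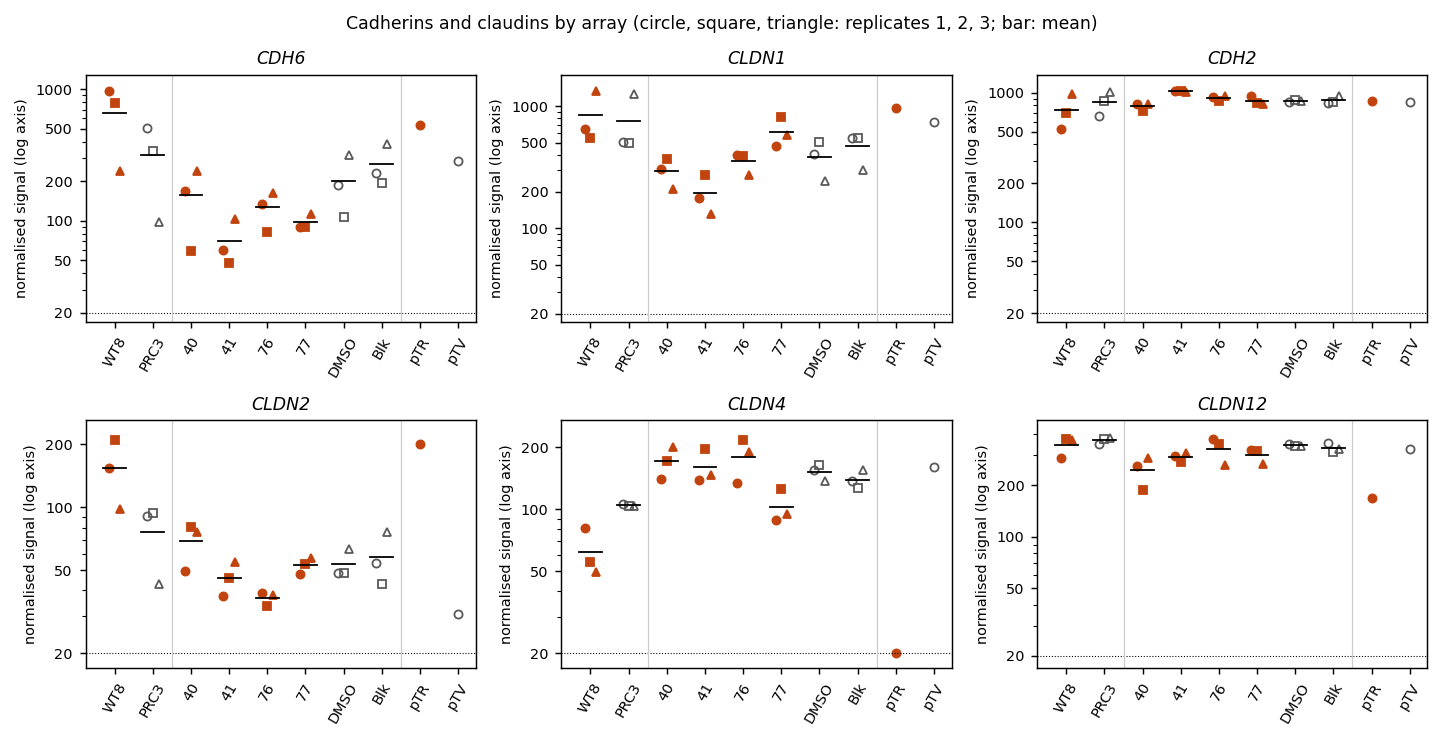
Normalised signal (log axis) of 2 cadherins and 4 claudins on each of the 26 arrays by group, with symbols for replicates 1, 2 and 3, bars at group means and the floor of 20 as a dotted line. Replicate 3 of CDH6 is the lowest array in WT8 and PRC3 and the highest in the compounds, DMSO and Blk, and CLDN4 is lower in WT8 (49.7 to 80.9) than in PRC3.

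Of the 50 partner genes 1 was called with 40 (2%), 6 with 41 (12%), 2 with 76 (4%) and 0 with 77, against 0.685%, 2.54%, 1.35% and 0.171% of all probe sets. With the block 7 were called with 41 (14%, against 6.67%) and 6 with 76 (12%, against 3.99%). FN1 was called higher with 3 compounds: it averaged 4512 with 40, 4021 with 41 and 4989 with 76, against 2190 in DMSO, which is 2.06-fold, 1.83-fold and 2.25-fold higher. With compound 41 the repressors of CDH1 transcription SNAI1 (121 ± 41.4 with 41, against 44.1 ± 15.4 in DMSO, adjusted p = 0.0311) and SNAI2 (434 ± 63.2 with 41, against 140 ± 35.8 in DMSO, adjusted p = 0.0297) were called higher. CDH1 itself was at or near the floor in all groups, so no fall of it could be measured. AFDN, which links nectins to actin, and CGNL1, a tight junction adaptor, were called lower with 41, by 1.52-fold and 1.97-fold. DST, one form of which ties keratin filaments to integrins in hemidesmosomes, was called higher with 41 and 76, by 1.47-fold and 1.38-fold.

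The compounds were also compared with each other in 6 pairs, with p-values adjusted over all probe sets and all pairs together. Their structures, doses and times are not given, so the pairs are compared as labelled. One member was called over all pairs, against 0.337% of all probe sets and pairs. It was CLDN1, with signals of 177, 273 and 130 for compound 41, against 469, 812 and 576 for 77. All arrays of 41 were lower, by -1.71 on the log2 scale (SE 0.38, 95% interval -2.49 to -0.94, adjusted p = 0.0438), in a pair in which 0.408% of all probe sets were called. The call held in 2 of 12 fits with 1 compound array left out, those without compound 40 replicate 1 and without compound 41 replicate 2. Between 41 and 76, CDH6 and CLDN1 were called lower and KRT8 and KRT18 higher in 41 with replicate number as a block (adjusted p = 0.0448, 0.00307, 0.0122 and 0.00842), against 0.917% of probe sets.

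KRT8 was on average lower with 40 and 76 than with 41 and 77. It averaged 735 ± 76.0 with 40 and 1249 ± 40.9 with 41, with no overlap, and that pair was not called without the block (log2 -0.77, 95% interval -1.17 to -0.37, adjusted p = 0.103). Between 40 and 76 the difference in KRT8 was 0.02, with an interval from -0.38 to 0.43. For ITGB8 none of the 6 pairs was called, with differences from -0.76 to 0.43 on the log2 scale.

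DMSO was compared with Blk to show what the vehicle itself does. No member was called and 1 had an unadjusted p below 0.05, and limma called 0 of the 35013 probe sets, of which 794 had an unadjusted p below 0.05. ITGB8 averaged 774 ± 84.3 in DMSO and 737 ± 86.8 in Blk, and KRT15 27.4 ± 11.9 in DMSO and 35.2 ± 16.3 in Blk. For ITGB8 the 95% interval of the log2 change ran from -0.85 to 0.99.

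PRC3 was compared with Blk to show how that subline differs from the untreated cells, a pair in which the handling of the 2 sets of cultures cannot be told apart from the subline. KRT19 was lower in PRC3 and ITGB5 higher, 2 calls among 78 members (2.56%), against 1.03% of all probe sets. KRT19 had signals of 135, 236 and 146 in PRC3, against 571, 456 and 428 in Blk. The arrays were far apart, and the 2.88-fold difference (log2 -1.53, SE 0.26, adjusted p = 0.00211) was called in all 6 fits with 1 array left out. With only PRC3 and Blk in the fit neither was called (adjusted p = 0.153 for KRT19 and 0.291 for ITGB5). ITGB5 averaged 1058 ± 241 in PRC3 and 612 ± 123 in Blk (1.72-fold higher, log2 0.78, adjusted p = 0.0132), and the call was lost without PRC3 replicate 2, Blk replicate 2 or Blk replicate 3, with median scaling (adjusted p = 0.0988) and with the mean over its probe sets (0.0973). ITGB8 averaged 1118 ± 289 in PRC3 and 737 ± 86.8 in Blk, with no overlap and no call (log2 0.58, adjusted p = 0.708).

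Of the partner genes, FERMT2 was 1.76-fold higher in PRC3 than in Blk (adjusted p = 0.0066). EPCAM, an adhesion molecule of epithelia, was at the floor on all 3 PRC3 arrays, against 107 ± 31.0 in Blk, and therefore at least 5.21-fold lower. WT8 and PRC3 share this comparison's PRC3 arrays, so the values are given side by side only: ITGB5 averaged 615 in WT8, 1058 in PRC3 and 612 in Blk, and KRT19 averaged 309 in WT8, 172 in PRC3 and 485 in Blk.

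**Figure D5:**
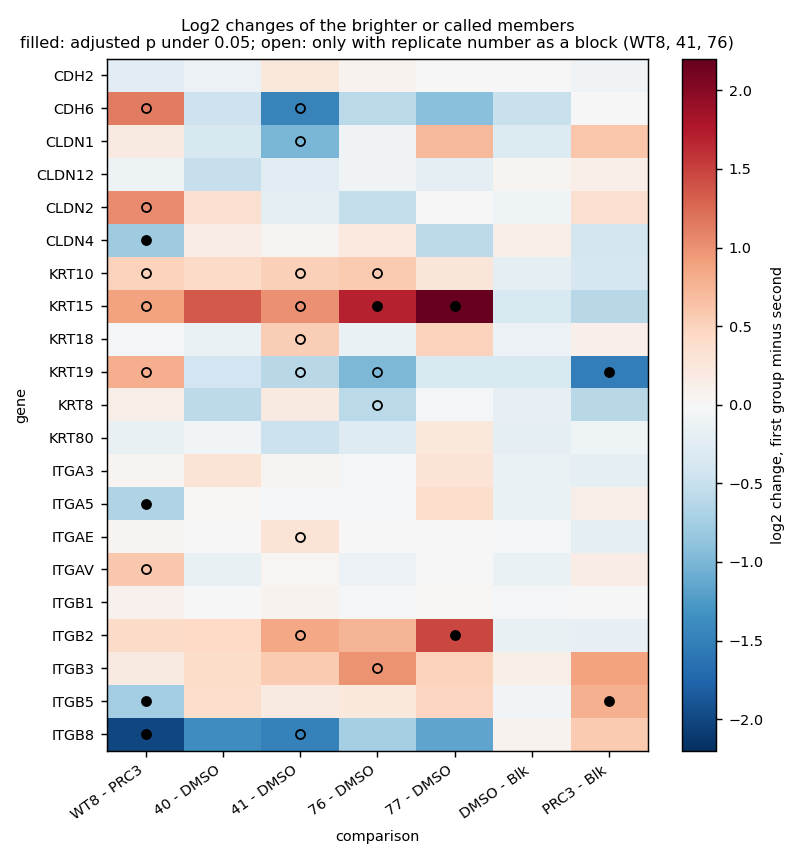
Log2 change (colour) of the 18 members with a mean signal of at least 100 and of CLDN2, KRT15 and ITGB2, in 7 comparisons named as first group minus second; filled circles mark an adjusted p below 0.05, and open circles one reached only with replicate number as a block, shown for WT8 against PRC3 and for compounds 41 and 76 against DMSO. ITGB8 is lower in WT8 and on average with all 4 compounds, and ITGB1 stays within 0.09 of 0 in the comparisons drawn.

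pTR and pTV had 1 array each, so their differences have no replicate check and no test. Of the 78 kept members 9 were at least 2-fold apart (11.5%), against 11.7% of all probe sets, with 6 higher and 3 lower in pTR. CLDN2 had a signal of 200.3 in pTR and 30.9 in pTV, 6.48-fold higher. CLDN4 was at the floor in pTR, against 160 in pTV, and so at least 8.0-fold lower. ITGB3 was 2.75-fold higher (280.1 in pTR, 102 in pTV), ITGA3, the laminin-binding alpha subunit, 2.25-fold higher (592 in pTR, 263 in pTV) and KRT10 2.17-fold higher (1929 in pTR, 890 in pTV). These were the members at least 2-fold apart whose brighter array was at or above its 70th percentile.

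CLDN2 and CLDN4 thus differed in the same direction between pTR and pTV as between WT8 and PRC3. ITGB8 had a signal of 669 in pTR and 1175 in pTV (log2 -0.81), and CDH6 534 in pTR and 282 in pTV (log2 0.92), again each with the sign seen in WT8. ITGB5 had the opposite sign, with 979 in pTR and 658 in pTV (log2 0.57), as did ITGAV, with 990 in pTR and 1180 in pTV. Of the 18 members with a mean signal of at least 100, 13 had the same sign in both comparisons (72.2%). The share was 51.8% of the 12065 kept probe sets as bright, and the difference was not tested. WT8 against PRC3 was also set beside each compound against DMSO. The members with the same sign were 50% with 40, 61.1% with 41, 38.9% with 76 and 55.6% with 77. Among the kept probe sets as bright these shares were 52.2%, 57%, 58.6% and 54.4%.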

How the data were processed

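The authors deposited 1 linear signal intensity for each probe set and array, and the submitters' processing notes name MAS5 without a version. The labels name limits of 20 and 16000 and a filter on variation; values below 20 and unvarying probe sets are still in the deposited table. All 26 arrays were quantile normalised without the 62 control probe sets, limited to 20 through 16000 and put on the log2 scale, since 2 arrays of compound 40 had been scaled otherwise by the authors (means of 166 and 174, against 143 on the other columns). A probe set was kept if it reached the array median on 3 or more of 24 arrays (35013 of 54613). Array medians were 20.2 to 27.4, close to the floor, and the number of arrays limits the precision.

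The model was fitted in R 4.3.3 by lmFit and eBayes of limma 3.58.1, with a trend, on 24 arrays in 8 groups with 16 residual degrees of freedom, and a call is a Benjamini-Hochberg adjusted p below 0.05 over all kept probe sets, or over these and all 6 pairs of compounds. Folds are differences of mean log2 signals, and signals are mean ± SD.

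Replicate number as a block was an alternative. Correlations of same-numbered arrays' deviations were all over 0.1 for WT8 and PRC3 (0.107 to 0.457), 41 and DMSO (0.172 to 0.206), 76 and DMSO (0.184 to 0.275), DMSO and Blk (0.146 to 0.293) and 41 and 76 (0.105 to 0.188), the pairing coming from the titles' numbers. It was not for 40 and DMSO (0.0769 to 0.141), 77 and DMSO (0.067 to 0.165) or PRC3 and Blk (0.00842 to 0.258).

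Genes were named through the platform annotation and the RefSeq table of GRCh38.p14, in which 41037 of 41091 single-gene probe sets were found. Named members were those listed as always eligible, those called and the brightest of each family. The members, partner lists and markers were chosen with earlier results of these data known. Signals as deposited, another scaling, floor, filter, probe set rule and sample set, and leaving out each array were tried as alternatives.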

Additional observations from a re-analysis of the deposited data

How the results depend on the processing

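The 9 called changes of members, the pairs of compounds aside, kept their direction in all alternatives run. The block is no check of direction, since each of the 8 groups has replicates 1, 2 and 3. It changes the SE and leaves the log2 change as it is. Among members always eligible or called, 19 changes were called only with the block. These kept their direction with 1 array left out. Other changes called only with the block, such as those of KRT10, were not checked in this way. Of 161 other changes of named members 67 changed sign with at least 1 array left out, among them CLDN1 (-0.19 to 0.63), KRT18 (-0.24 to 0.21), KRT8 (-0.05 to 0.45) and ITGB3 in WT8 against PRC3. Counts of members called moved as follows, with the number of all probe sets called in brackets. In the main fit that number was 889 with 41, 474 with 76, 60 with 77 and 362 in PRC3 against Blk. For the compound pairs it is given for the block only. With each array scaled by its median, 1 member was called with 77 against DMSO (27 of all) and 1 in PRC3 against Blk (186 of all). In the compound pairs 0 were called. With log2(signal + 20) in place of the floor, 0 were called with 76 (436 of all) and 0 in the pairs. With no filter, 0 were called with 76 (395 of all), 0 with 77 (34 of all) and 0 in the pairs, since more probe sets were tested. With the mean over a gene's probe sets, 1 was called with 41 (571 of all), 1 with 77 (26 of all) and 0 in the pairs. With only the compared groups in the fit, which leaves fewer samples, 0 were called in WT8 against PRC3 (19 of all 35013 probe sets), 2 with 76 (126 of all), 0 with 77 (0 of all), 0 in PRC3 against Blk (0 of all) and 0 in the pairs. With replicate number as a block, 10 were called in WT8 against PRC3 (3151 of all), 9 with 41 (2335 of all) and 5 with 76 (1396 of all). With 40 there were 2 (ITGB8 lower and KRT15 higher, 2.56%, against 3.15% of all probe sets). With 77 there were 4, since CDH6 lower and CLDN1 higher were added (5.13%, against 1.43%). Over the 6 pairs 19 were called, against 1.67% of all probe sets. By pair, 0% to 6.41% of members were called, against 0.917% to 2.44% of all probe sets. The block left the calls of DMSO and of PRC3 against Blk as they were. For 40 and DMSO, 77 and DMSO, and PRC3 and Blk, the correlations of same-numbered arrays' deviations were positive but not all over 0.1.

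With 1 array of the compared groups left out, 3 to 5 members were called in WT8 against PRC3 (1006 to 1869 of all probe sets). The counts were 0 to 1 with 40 (50 to 622 of all), 0 to 1 with 41 (419 to 685) and 0 to 1 with 76 (226 to 381). They were 0 to 2 with 77 (15 to 125), 1 to 2 in PRC3 against Blk (151 to 311) and 0 to 2 in the pairs. Without the separately scaled replicates 2 and 3 of compound 40, an alternative added after seeing the data, 0 members were called with 40. The causes of these moves were not tested, apart from the numbers of probe sets and samples. On each array 16.7% to 20.8% of the values kept lay at the floor, which limits folds of dim members.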
